A study of Mus musculus with 6 samples.

Results

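Genes of the citric acid cycle and of mitochondrial fatty acid oxidation were measured by RNA sequencing in mouse bone marrow-derived macrophages given IL-4 alone or IL-4 with CGRP. The 41 genes were chosen by name and function: enzymes that bring pyruvate into the cycle, enzymes of the cycle other than succinate dehydrogenase, acyl-CoA synthetases and carnitine palmitoyltransferases, beta oxidation enzymes, electron transfer flavoproteins, and the regulators Ppard and Ppargc1b with the carrier Ucp2. The choice was made with earlier results of these data known. Each name matched 1 row of the deposited table, which holds 57180 genes. Of the 41 genes, 40 had enough counts to be tested, among 13260 tested genes; Pdk4 did not.

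The macrophages were grown from femur and tibia marrow of wild-type (WT) mice aged 6 to 8 weeks, with M-CSF, a macrophage growth factor, at 20 ng/mL for 7 days. Both groups then received IL-4, the cytokine of alternative macrophage activation, at 20 ng/mL for 24 h, and 1 group also received CGRP, a neuropeptide of sensory nerves. The dose of CGRP is left out here, since the treatment label is ambiguous about it. There were 3 libraries in each group, with total counts of 20088859 to 24060440. The labels do not say that replicates came from separate cultures or mice, nor give strain, sex or number of mice, so p-values rest on the spread between these samples only, and that spread may be technical. All cultures had IL-4, and none without it is compared here. Levels are given as CPM, counts per 1000000 counts of the TMM-scaled library. All 8 macrophage markers examined were present, from 24.8 CPM (Cd14) to 4167 CPM (Lyz2) on average in IL-4 libraries. The 4 adipocyte markers summed to at most 0.0825 CPM in any library. Lists of other cell types summed higher, with 4 endothelial markers reaching 164 CPM, and are given at the end of the Results. On the first principal component of all tested genes IL-4+CGRP replicate 2 lay between the groups, at -0.17, against -25.97 to -11.22 for IL-4 and 21.98 and 27.05 for the other treated libraries, and results are also given without it. In bulk RNA, fewer cells of a type and less RNA per cell cannot be told apart.

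The citric acid cycle oxidises acetyl-CoA in the mitochondrial matrix and passes electrons to the respiratory chain. Acetyl-CoA comes from pyruvate, through the pyruvate dehydrogenase complex, or from fatty acids, which are activated by acyl-CoA synthetases, carried into mitochondria as carnitine esters and shortened by repeated rounds of beta oxidation. Macrophages activated with IL-4 are known for oxidative metabolism that draws on fatty acids, and the nuclear receptors PPAR gamma and PPAR delta with the coactivator PGC-1 beta are known regulators of that program.

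Adding CGRP was accompanied by lower Mdh1 (cytosolic malate dehydrogenase) and Ucp2 (a mitochondrial inner membrane carrier) and by higher Ppard (PPAR delta, a fatty acid sensing nuclear receptor). These were the members past an adjusted p of 0.05 in edgeR's quasi-likelihood test: 1 of 40 tested members rose, against 2.32% of all tested genes, and 2 fell, against 1.54% (3.85% in either direction). The other 37 did not pass. The median log2 fold change (IL-4+CGRP over IL-4) of the 40 was -0.10, against -0.0042 over all tested genes, and 31 of the 40 (77.5%) lay below 0, against 50.8% of all tested genes. For 14 members every IL-4+CGRP library was below every IL-4 library, against 9.92% of all tested genes, and for 2 every one was above, against 11.1%. At an unadjusted p under 0.05, 11 members were lower (7.21% of all tested genes) and 2 higher (8.61%). The differences were small. For 30 of the 40 members the 95% confidence interval of the fold change lay within 1.25-fold either way (6224 of 13260 tested genes). For 39 of the 40 it lay within 1.5-fold (9510 of 13260 tested genes). The exception at 1.5-fold was Me1, with 10 to 19 counts a library. DESeq2 and limma-voom called the same 3 members, against 1.81% of all genes higher and 1.21% lower by DESeq2 and 1.98% and 1.27% by limma-voom. So did edgeR without a count filter (2.46% higher, 1.83% lower). With each library's gene length trend removed (3.57% higher, 2.9% lower), Hadha fell too (adjusted p = 0.040).

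**Figure D1:**
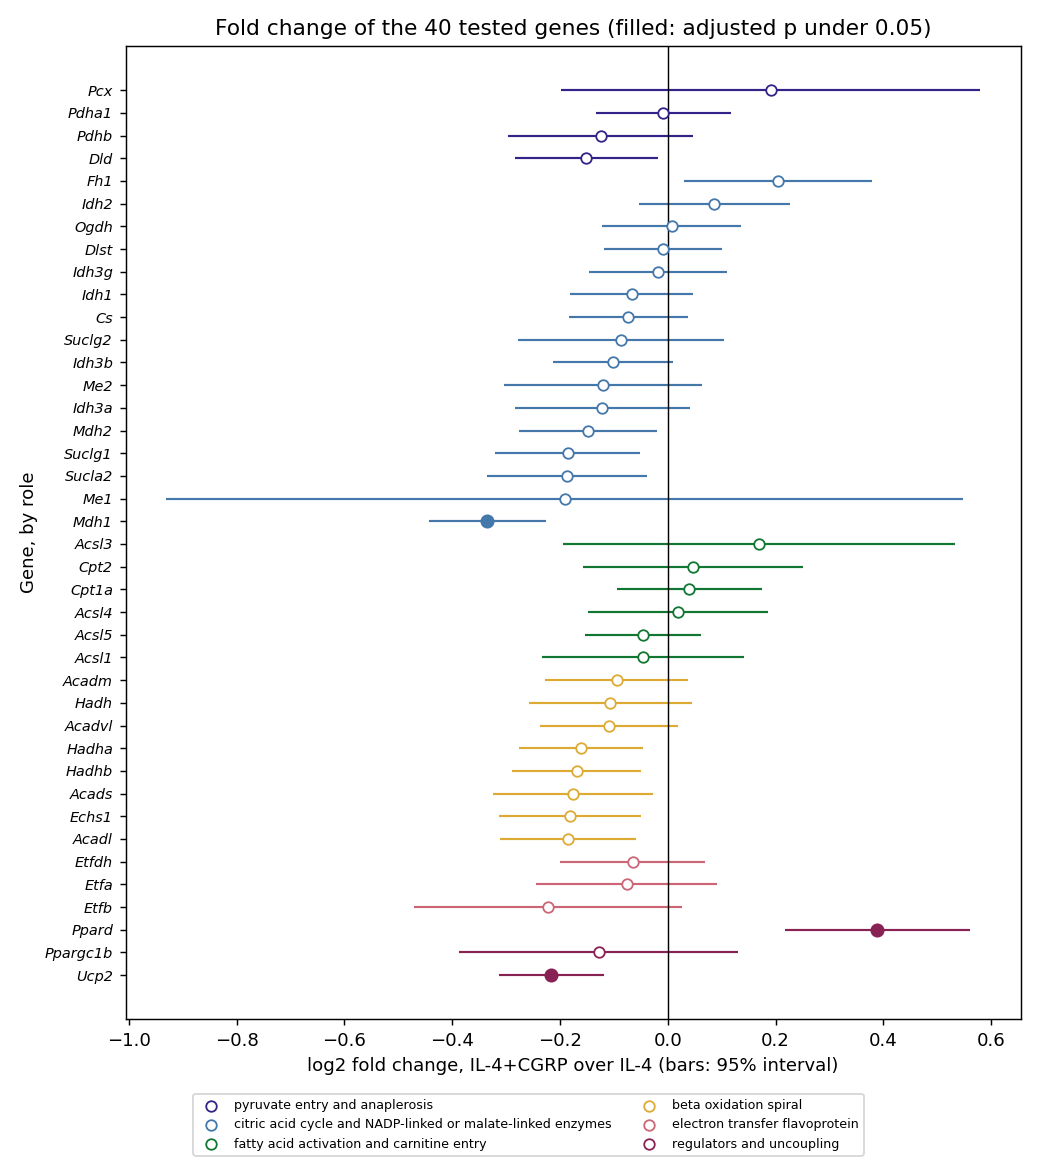
Log2 fold change (horizontal axis) of IL-4+CGRP over IL-4 for the 40 tested genes, ordered by role, with 95% confidence intervals; filled points passed an adjusted p of 0.05. Ppard lies at 0.39, Mdh1 at -0.33 and Ucp2 at -0.22, and all 8 beta oxidation enzymes lie between -0.18 and -0.09 as open points.

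Mdh1 stood at 148, 144 and 145 CPM with IL-4 alone and at 115, 118 and 114 CPM with CGRP added. All 3 treated libraries were below all 3 controls, and the spread within each group was narrow. The level fell from 146 ± 1.85 to 116 ± 2.43 CPM (SD, n = 3 in each group), 1.26-fold lower (log2 fold change -0.33, SE 0.05, edgeR adjusted p = 0.0028). Mdh1 converts malate and oxaloacetate in the cytosol and is part of the malate-aspartate shuttle, which moves reducing equivalents into mitochondria. The call held under all 16 alternative settings, with adjusted p from 4.2e-06 to 0.032.

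Ucp2 stood at 668, 719 and 686 CPM with IL-4 alone and at 583, 611 and 590.02 CPM with CGRP added. Ucp2 encodes an uncoupling-family carrier that exports cycle intermediates from the matrix. Its groups did not overlap, and IL-4+CGRP replicate 2 was the highest of its group. The level fell from 691 ± 26.1 to 595 ± 14.9 CPM (SD, n = 3 in each group), 1.16-fold lower (log2 fold change -0.22, SE 0.04, edgeR adjusted p = 0.019). The call ended without IL-4 replicate 2 (adjusted p = 0.13), IL-4 replicate 3 (0.12), IL-4+CGRP replicate 1 (0.13) or IL-4+CGRP replicate 3 (0.086).

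Ppard stood at 29.8, 30.6 and 31.0 CPM with IL-4 alone and at 40.5, 35.7 and 43.5 CPM with CGRP added. The controls lay close together, while IL-4+CGRP replicate 2 was nearest to them and replicate 3 farthest. The level rose from 30.5 ± 0.621 to 39.9 ± 3.96 CPM (SD, n = 3 in each group), 1.31-fold higher (log2 fold change 0.39, SE 0.08, edgeR adjusted p = 0.017). The call ended without IL-4 replicate 1 (adjusted p = 0.084), 2 (0.10) or 3 (0.077) and without IL-4+CGRP replicate 1 (0.085) or 3 (0.081), although the log2 fold change stayed between 0.32 and 0.39 in those fits.

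**Figure D2:**
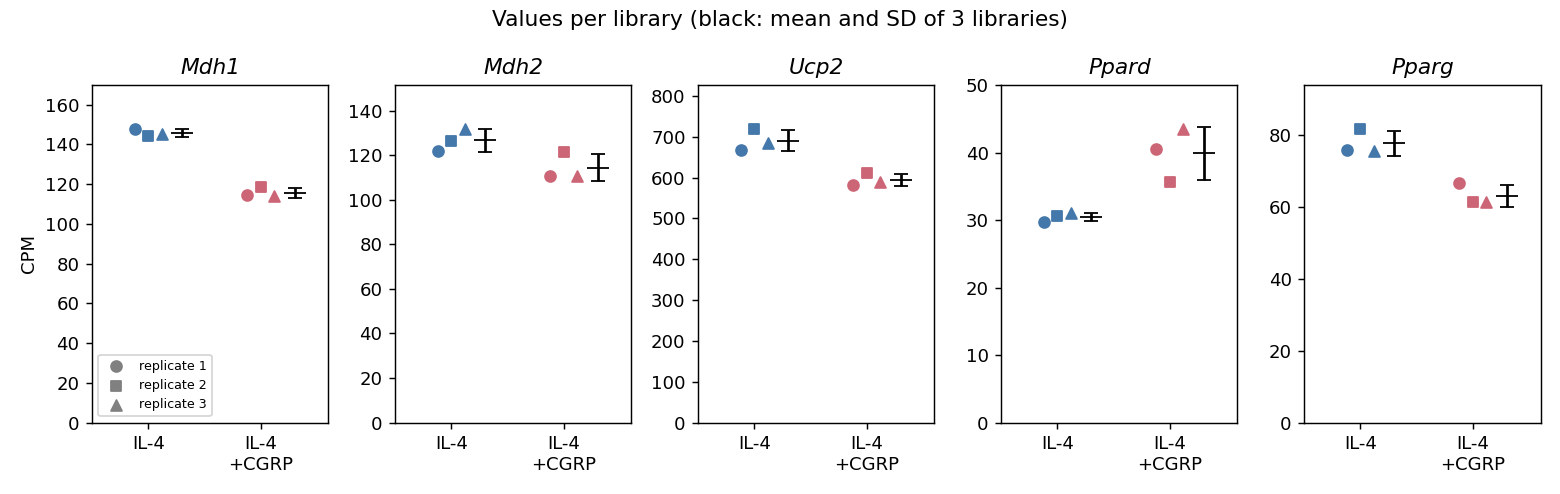
CPM (vertical axes, from 0) in each library for Mdh1, Mdh2, Ucp2, Ppard and Pparg, with blue IL-4 and red IL-4+CGRP points, marker shapes for replicates 1 to 3, and the mean and SD of 3 libraries in black. The groups do not overlap for any of the 5 genes; Mdh2 did not pass the test.

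The sequences just upstream of the 3 called genes, and of Mdh2 for comparison with Mdh1, are shown because CGRP receptors signal through cyclic AMP, whose response element is TGACGTCA. Each run is the 250 bases before the RefSeq start site (build GRCm38.p6, used only for sequence; the counts were made on GRCm39), read 5′ to 3′ on the gene's strand, with capitals marking TGACGTCA or its part TGACG on either strand. The windows are chr11:21571935-21572184, minus strand (Mdh1), chr5:135778399-135778648, plus strand (Mdh2), chr7:100493108-100493357, plus strand (Ucp2) and chr17:28232504-28232753, plus strand (Ppard).
Mdh1: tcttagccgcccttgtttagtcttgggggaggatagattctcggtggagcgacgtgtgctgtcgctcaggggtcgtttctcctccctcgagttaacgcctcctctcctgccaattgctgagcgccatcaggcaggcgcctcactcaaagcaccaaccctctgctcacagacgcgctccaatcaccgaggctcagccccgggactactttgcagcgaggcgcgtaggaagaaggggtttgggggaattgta
Mdh2: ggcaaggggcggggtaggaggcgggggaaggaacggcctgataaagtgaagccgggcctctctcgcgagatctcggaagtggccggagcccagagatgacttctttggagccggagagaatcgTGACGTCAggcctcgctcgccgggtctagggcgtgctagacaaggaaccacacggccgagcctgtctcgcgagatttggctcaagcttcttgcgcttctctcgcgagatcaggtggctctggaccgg
Ucp2: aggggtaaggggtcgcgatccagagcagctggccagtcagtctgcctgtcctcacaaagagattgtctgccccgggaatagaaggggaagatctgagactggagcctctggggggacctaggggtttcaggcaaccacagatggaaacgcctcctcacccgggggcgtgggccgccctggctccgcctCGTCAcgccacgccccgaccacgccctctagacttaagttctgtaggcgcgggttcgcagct
Ppard: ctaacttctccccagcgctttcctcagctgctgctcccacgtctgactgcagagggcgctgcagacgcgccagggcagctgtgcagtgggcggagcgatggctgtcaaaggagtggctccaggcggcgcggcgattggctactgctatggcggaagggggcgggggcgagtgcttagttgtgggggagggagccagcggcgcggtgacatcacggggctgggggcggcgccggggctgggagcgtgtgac
None of the 3 called genes held TGACGTCA, the PPAR element DR1 (AGGTCA repeated in the same direction after 1 base of any kind) or the estrogen-related receptor element TCAAGGTCA in this window, searched on both strands. These occur in 1.55%, 0.0335% and 0.387% of the 32851 windows of this length in the table. Of the 41 genes, 38 matched the table, with 47 windows, some overlapping. TGACGTCA was found in 4 of the 47, which belong to Mdh2 (at -127 from the start site) and Ogdh, both not called; neither of the other elements was found. The shorter TGACG, which any TGACGTCA contains and which was searched after the sequences were seen, lies in the Ucp2 window as CGTCA at -62. It was in 15 of the 47 windows and in 17.8% of all windows. Several of the 15 are overlapping Ogdh windows that share sites, as do the Ogdh windows with TGACGTCA, so windows are not separate genes. A single AGGTCA, also searched afterwards, was in 6 of the 47 windows, none of a called gene, and in 14% of all windows. A match is a description of the letters and not of binding.

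Levels between genes were compared per kilobase of the deposited gene length, which need not be the length of the expressed transcript. Ucp2 was the most abundant of the 41 at 173 CPM per kilobase in IL-4 libraries, followed by Mdh2 (87.0), Idh1 (81.0), Mdh1 (68.7) and citrate synthase, Cs (57.7). The least abundant were Acsl3 (1.12), Pcx (0.694), Me1 (0.208) and Pdk4 (0.0603). Pairs within complexes were near or far from parity: the trifunctional protein subunits Hadha and Hadhb had a ratio of 0.989 ± 0.0359 per kilobase in IL-4 libraries (SD, n = 3), and Idh3a to Idh3b, of NAD-dependent isocitrate dehydrogenase, 0.185 ± 0.00940. With CGRP these were 0.998 ± 0.0671 and 0.183 ± 0.0138, with overlapping groups in both.

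**Figure D3:**
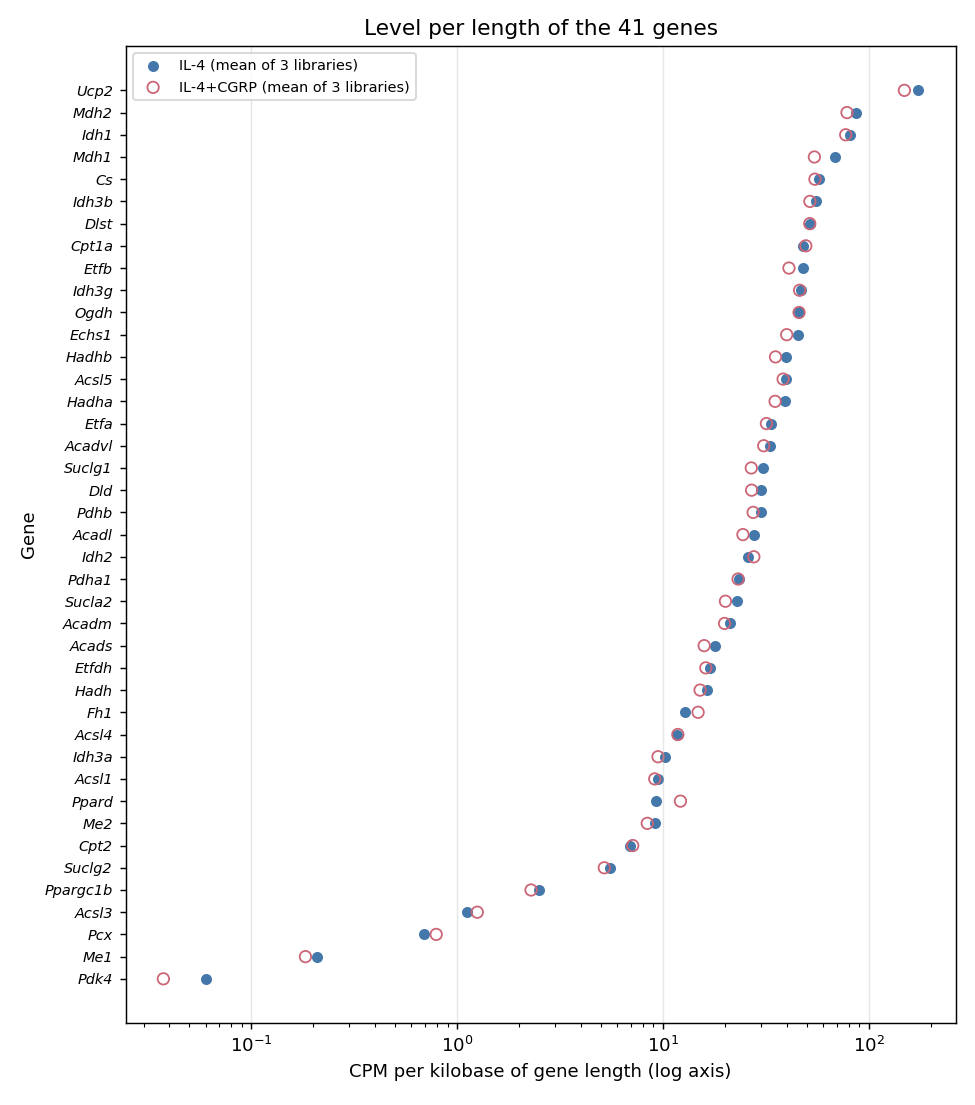
Mean CPM per kilobase of deposited gene length (log axis) for the 41 genes in IL-4 (filled) and IL-4+CGRP (open) libraries, ordered by the IL-4 level. Values run from 0.0603 for Pdk4 to 173 for Ucp2 in IL-4 libraries, and the open points of most genes lie at or just left of the filled ones.

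Pyruvate entry genes had 0 of 4 tested members past the threshold by edgeR, DESeq2 or limma-voom (by edgeR 3.85% of all tested genes passed). At an unadjusted p under 0.05 by edgeR, 1 (Dld) was lower, against 7.21% of all tested genes. Pdha1 and Pdhb encode the E1 subunits of pyruvate dehydrogenase, with log2 fold changes of -0.01 and -0.12. Dld, the dihydrolipoamide dehydrogenase shared by the pyruvate and 2-oxoglutarate dehydrogenase complexes, had -0.15 (edgeR unadjusted p = 0.029, adjusted p = 0.24). Pcx stood at 2.63, 3.38 and 2.63 CPM with IL-4 alone and at 3.18, 3.08 and 3.60 CPM with CGRP added. Pcx is pyruvate carboxylase, which makes oxaloacetate from pyruvate, and its groups overlapped (log2 fold change 0.19, SE 0.18, edgeR adjusted p = 0.66). Pdk4, a kinase that inhibits pyruvate dehydrogenase, had 7, 5 and 1 counts with IL-4 alone and 4, 1 and 4 with CGRP added, too few to compare.

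Among the 16 cycle and malate-linked enzymes, Mdh1 fell, against 1.54% of all tested genes, and the other 15 did not pass. Of the 16, 13 had log2 fold changes below 0 (median -0.09), against 50.8% of all tested genes. Their summed level was 1303, 1328 and 1314 CPM with IL-4 alone and 1256, 1234 and 1235 CPM with CGRP added. All 3 treated sums were below the control sums (-5.58%), as they were over all tested genes (-1.86%), with means of 1315 ± 12.6 and 1242 ± 12.3 CPM (SD, n = 3), and Mdh1 itself went from 146 to 116 CPM of that.

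Cs stood at 164, 173 and 169 CPM with IL-4 alone and at 165, 157 and 159 CPM with CGRP added. Citrate synthase starts the cycle by joining acetyl-CoA and oxaloacetate. Its groups overlapped at replicate 1 (log2 fold change -0.07, SE 0.05, edgeR adjusted p = 0.54). Idh3a stood at 26.3, 26.1 and 27.3 CPM with IL-4 alone and at 24.7, 25.8 and 22.8 CPM with CGRP added. Idh3a is the catalytic subunit of NAD-dependent isocitrate dehydrogenase, and its groups stood just apart (log2 fold change -0.12, SE 0.07, edgeR adjusted p = 0.48); Idh3b and Idh3g had -0.10 and -0.02. Ogdh stood at 179.7, 187 and 191 CPM with IL-4 alone and at 194, 173 and 194 CPM with CGRP added. Ogdh is the E1 component of the 2-oxoglutarate dehydrogenase complex, and its IL-4+CGRP replicate 2 was below all controls while replicates 1 and 3 were above them (log2 fold change 0.01, SE 0.06, edgeR adjusted p = 0.97). Dlst, its E2 component, had -0.01. The 95% interval of the Ogdh change was -8.10% to 9.88%.

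Idh1 stood at 186, 189 and 185 CPM with IL-4 alone and at 186, 169.7 and 178 CPM with CGRP added. Idh1, the cytosolic NADP-dependent isocitrate dehydrogenase, had overlapping groups (log2 fold change -0.07, SE 0.05, edgeR adjusted p = 0.59), and the mitochondrial Idh2 had 0.09 (adjusted p = 0.57 by edgeR). Suclg1, the alpha subunit of succinyl-CoA ligase (-0.19, edgeR unadjusted p = 0.011, adjusted p = 0.15) and Sucla2, its ATP-forming beta subunit (-0.19, unadjusted p = 0.018, adjusted p = 0.19), had treated libraries below all controls; the GTP-forming subunit Suclg2 had -0.09 with overlapping groups. Fumarase, Fh1, was the cycle enzyme with the highest log2 fold change, 0.20 (edgeR unadjusted p = 0.026, adjusted p = 0.23). Its treated libraries lay at 37.1, 43.4 and 36.8 CPM, above the controls at 34.7, 35.4 and 31.8 CPM, with IL-4+CGRP replicate 2 the highest. The malic enzymes Me1 and Me2, which turn malate into pyruvate, had -0.19 and -0.12 with overlapping groups.

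Mdh2 stood at 122, 126 and 132 CPM with IL-4 alone and at 111, 121 and 111 CPM with CGRP added. Mdh2 is the mitochondrial malate dehydrogenase of the cycle, and its IL-4+CGRP replicate 2 nearly reached the lowest control (log2 fold change -0.15, SE 0.06, edgeR adjusted p = 0.24). The ratio of Mdh1 to Mdh2 per kilobase was 0.833, 0.782 and 0.757 with IL-4 alone and 0.710, 0.670 and 0.705 with CGRP added. It was lower in all 3 treated libraries; the pair was chosen after its values were seen and is given with no test.

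Fatty acid activation and carnitine entry genes showed no common direction. By edgeR, DESeq2 and limma-voom 0 of 6 passed (by edgeR 3.85% of all tested genes passed). At an unadjusted p under 0.05 by edgeR there were 0, against 7.21% of all tested genes lower and 8.61% higher. Of the 6 log2 fold changes 4 were above 0 and 2 below (median 0.03), against 50.8% of all tested genes below 0. Cpt1a stood at 202, 216 and 206 CPM with IL-4 alone and at 225, 195 and 221 CPM with CGRP added. Cpt1a, carnitine palmitoyltransferase 1A of the outer membrane, controls entry of long-chain acyl groups into mitochondria. Its IL-4+CGRP replicates 1 and 3 were above all controls and replicate 2 below them (log2 fold change 0.04, SE 0.06, edgeR adjusted p = 0.80), with a 95% interval of -6.29% to 12.9%. Cpt2, which reforms acyl-CoA inside, had 0.05. The acyl-CoA synthetases Acsl1, Acsl3, Acsl4 and Acsl5 had -0.05, 0.17, 0.02 and -0.05; Acsl5 was the most abundant of them per kilobase (39.6 CPM per kilobase in IL-4) and Acsl3 the least (1.12). The summed level of the 6 was 478, 500.4 and 499 CPM with IL-4 alone and 513, 465 and 503 CPM with CGRP added, with IL-4+CGRP replicate 2 the lowest of all.

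Of the 8 beta oxidation enzymes, 0 passed the test by edgeR, DESeq2 or limma-voom (by edgeR 3.85% of all tested genes passed). All 8 log2 fold changes lay below 0, against 50.8% of all tested genes, and 5 were lower at an unadjusted p under 0.05, against 7.21%. For 6 of the 8 every treated library was below every control, against 9.92% of all tested genes, and Acadm and Acadvl had overlapping groups. Over the 8 genes, log2 fold changes ran from -0.18 (Acadl) to -0.09 (Acadm), with a median of -0.16 and adjusted p from 0.12 to 0.51. Summed over the 8 genes the level was 540.3, 553 and 531 CPM with IL-4 alone and 486, 497 and 478 CPM with CGRP added. Every treated sum was below every control sum (-10.03%; over all tested genes the sums stood apart too, at -1.86%), a mean of 487 ± 9.73 against 541 ± 10.9 CPM (SD, n = 3).

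The spiral begins with chain-length specific acyl-CoA dehydrogenases. Acadm stood at 41.7, 45.4 and 43.6 CPM with IL-4 alone and at 40.9, 41.8 and 39.8 CPM with CGRP added, with IL-4+CGRP replicate 2 level with the lowest control. Acadm is the medium-chain enzyme (log2 fold change -0.09, SE 0.06, edgeR adjusted p = 0.50). The long-chain enzyme Acadl (-0.18, edgeR unadjusted p = 0.0081) and the short-chain enzyme Acads (-0.18, unadjusted p = 0.025) had groups that did not overlap; the very-long-chain Acadvl (-0.11) had overlapping groups.

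Hadha stood at 152, 165 and 156 CPM with IL-4 alone and at 138, 143 and 142 CPM with CGRP added. Hadha, the alpha subunit of the trifunctional protein, carries the hydratase and dehydrogenase steps for long chains. All treated libraries were below all controls (log2 fold change -0.16, SE 0.05, edgeR adjusted p = 0.15; unadjusted p = 0.011). Its partner Hadhb, the thiolase subunit, had -0.17 (edgeR unadjusted p = 0.010), and the short-chain enoyl-CoA hydratase Echs1 -0.18 (unadjusted p = 0.011). Hadh, which oxidises shorter hydroxyacyl-CoA, had -0.11, with groups that did not overlap (unadjusted p = 0.15). Echs1 overlaps exons of Paox on the opposite strand and Acadvl those of Dvl2; the counts of Paox were 115% and those of Dvl2 43.6% of the member's, and whether the authors counted by strand is unknown here. The same holds for Mdh1, with 52 exon bases shared with Wdpcp (3.09% of its counts), Ucp2 with Dnajb13 (0.365%), Pdha1 with Map3k15 (8.40%), Idh3b with Nop56 (63.2%, 5 bases), Etfdh with 4930579G24Rik (5.06%) and Acsl5 with Zdhhc6 (22.4%), and, on the same strand, Acsl3 with Utp14b (54.4%).

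**Figure D4:**
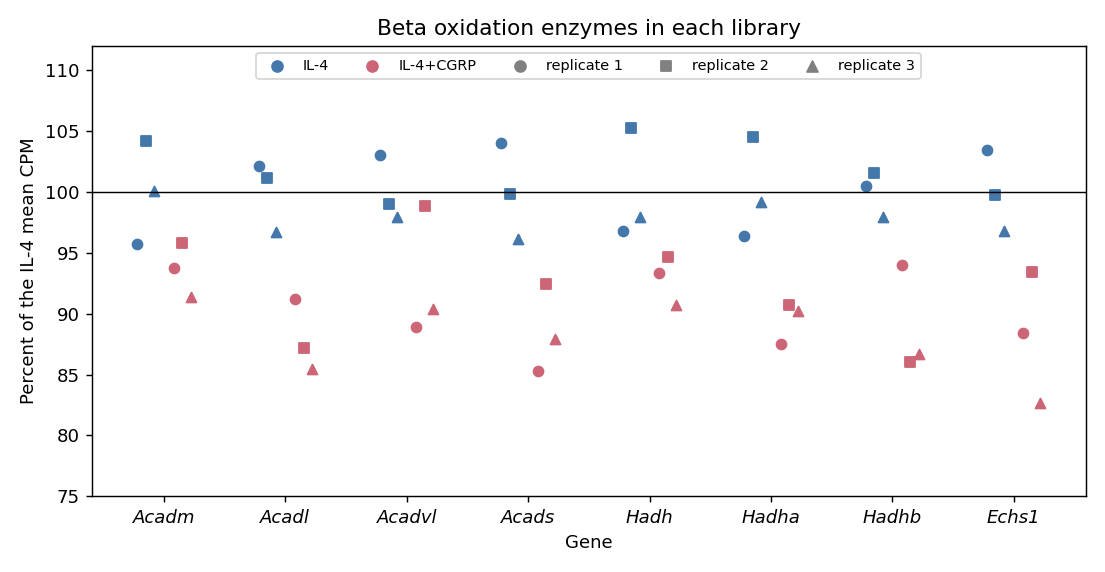
CPM of the 8 beta oxidation enzymes in each library as a percent of the gene's IL-4 mean (vertical axis, not starting at 0), IL-4 in blue and IL-4+CGRP in red, with marker shapes for replicates 1 to 3. The treated points lie below the controls for all but Acadm and Acadvl, where IL-4+CGRP replicate 2 reaches into the control range. The same separation was seen for 9.92% of all tested genes.

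Electron transfer flavoprotein takes electrons from the acyl-CoA dehydrogenases and passes them to ubiquinone through its dehydrogenase, Etfdh. Etfdh stood at 40.9, 38.4 and 41.3 CPM with IL-4 alone and at 38.5, 39.3 and 37.5 CPM with CGRP added, with overlapping groups (log2 fold change -0.06, SE 0.06, edgeR adjusted p = 0.67). Etfa and Etfb, the subunits of the flavoprotein, had -0.08 and -0.22 (edgeR adjusted p = 0.69 and 0.37). By edgeR, DESeq2 and limma-voom 0 of the 3 passed (by edgeR 3.85% of all tested genes passed). At an unadjusted p under 0.05 by edgeR there were 0, against 7.21% of all tested genes lower and 8.61% higher. Etfb stood at 48.1, 39.2 and 40.8 CPM with IL-4 alone and at 33.3, 42.5 and 33.97 CPM with CGRP added. IL-4+CGRP replicate 2 lay inside the control range and the other treated libraries below it.

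Ppargc1b stood at 7.59, 8.49 and 8.84 CPM with IL-4 alone and at 6.77, 8.04 and 8.06 CPM with CGRP added. Ppargc1b encodes PGC-1 beta, and its groups overlapped (log2 fold change -0.13, SE 0.12, edgeR adjusted p = 0.65; 95% interval of the change -23.5% to 9.41%). The related coactivator gene Ppargc1a had 3 to 10 counts a library and was not tested.

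Other genes of the same pathways were taken from lists chosen by function, of 88 genes: 34 around the cycle and pyruvate, 38 of fatty acid oxidation and 16 regulators. These lists too were chosen with earlier results of these data known. Of the 77 tested, 0 rose by edgeR, DESeq2 or limma-voom (by edgeR 2.32% of all tested genes), and by edgeR 3 fell (1.54%). At an unadjusted p under 0.05, 3 were higher (8.61% of all tested genes) and 9 lower (7.21%). Groups did not overlap for 6 that were higher (11.1%) and 13 that were lower (9.92%). The median log2 fold change of the 77 was -0.04, with 51 of 77 (66.2%) below 0, against 50.8% of all tested genes. The lists differed: 25 of 31 cycle and pyruvate genes and 23 of 35 fatty acid oxidation genes lay below 0. Among the regulators it was 3 of 11, with a median of 0.04. Pparg stood at 75.9, 81.6 and 75.4 CPM with IL-4 alone and at 66.5, 61.3 and 61.2 CPM with CGRP added. Pparg encodes PPAR gamma, a regulator of lipid genes in macrophages, and fell from 77.7 ± 3.44 to 63.0 ± 3.05 CPM (SD, n = 3 in each group), with a log2 fold change -0.30, SE 0.06, edgeR adjusted p = 0.014. Ppara was listed at 0 counts in all 6 libraries. The ratio of Ppard to Pparg per kilobase was 0.212, 0.202 and 0.222 with IL-4 alone and 0.328, 0.314 and 0.384 with CGRP added, a description of a pair chosen after its values were seen. The Pparg call ended without IL-4 replicate 1 (adjusted p = 0.054), 2 (0.10) or 3 (0.053) or IL-4+CGRP replicate 3 (0.053). The PPAR partner Rxra and the orphan receptor Esrra had 0.16 (adjusted p = 0.12 by edgeR) and 0.01 (adjusted p = 0.97).

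Slc25a13 stood at 32.7, 36.04 and 33.2 CPM with IL-4 alone and at 27.3, 25.5 and 29.1 CPM with CGRP added. Slc25a13 is an aspartate-glutamate carrier of the malate-aspartate shuttle, of which Mdh1 is also part, and fell 1.25-fold (log2 fold change -0.32, SE 0.07, edgeR adjusted p = 0.037). The shuttle's other components, gathered after seeing this, did not pass: Slc25a12 (-0.03), Slc25a11 (-0.04), Got1 (-0.02), Got2 (-0.05) and Mdh2. Abcd2 stood at 63.9, 68.4 and 63.7 CPM with IL-4 alone and at 58.3, 52.5 and 54.3 CPM with CGRP added. Abcd2, a peroxisomal transporter of very long-chain acyl-CoA, fell 1.19-fold (log2 fold change -0.25, SE 0.06, edgeR adjusted p = 0.047). The Slc25a13 call ended without any library other than IL-4+CGRP replicates 2 and 3 (adjusted p 0.084, 0.19 and 0.12 without IL-4 replicates 1 to 3, and 0.14 without IL-4+CGRP replicate 1). The Abcd2 call ended without any library other than IL-4+CGRP replicate 2 (adjusted p 0.061 to 0.22), and both ended by DESeq2 (adjusted p = 0.0502 and 0.065) and limma-voom (adjusted p = 0.052 and 0.071). Acod1 stood at 22.9, 27.7 and 24.1 CPM with IL-4 alone and at 32.2, 28.5 and 31.3 CPM with CGRP added. Acod1, which makes itaconate from the cycle intermediate aconitate, had groups that stood apart but did not pass (log2 fold change 0.30, SE 0.09, edgeR adjusted p = 0.092).

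The number of members called depended on IL-4+CGRP replicate 2, the library that lay between the groups. Without it, 7 of 40 members fell, against 7.04% of 13492 tested genes, and Ppard alone rose, against 6.78%. Those that fell were Mdh1, Ucp2, Mdh2 (adjusted p = 0.017), Suclg1 (0.024), Hadha (0.031), Echs1 (0.013) and Etfb (0.011), by edgeR. The members' median log2 fold change was -0.10 with it and without it. Taken per library, the median over the members of log2 CPM relative to the IL-4 mean was -0.09, -0.09 and -0.08 in IL-4+CGRP replicates 1 to 3, so replicate 2 was as low as the others over the whole list. Over fatty acid activation and carnitine entry it was 0.07, -0.07 and 0.06, with replicate 2 on the other side of 0. Of the other pathway genes 14 of 77 fell and 3 rose without that library, with all 4 succinate dehydrogenase subunits (Sdha, Sdhb, Sdhc and Sdhd) among those that fell.

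**Figure D5:**
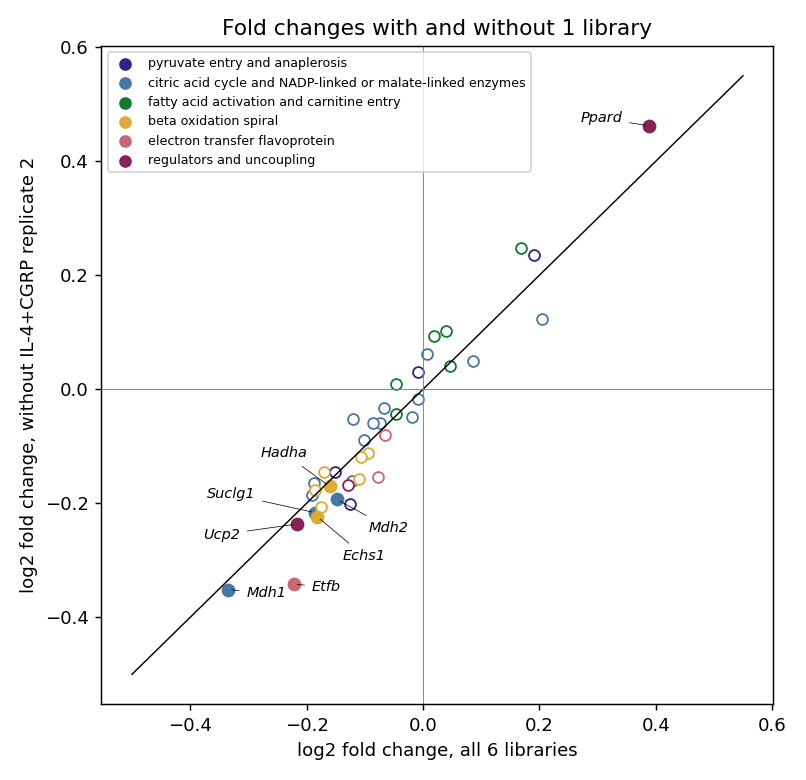
Log2 fold change of the 40 tested genes with all 6 libraries (horizontal axis) and without IL-4+CGRP replicate 2 (vertical axis), with the line of equal values; filled, named points passed an adjusted p of 0.05 in the fit without it. Ppard rises to 0.46 and Etfb moves from -0.22 to -0.34.

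Of the 8 macrophage markers, Cd14 and Itgam rose (log2 fold change 0.61 and 0.41, edgeR adjusted p = 5.9e-04 and 0.0012), and Adgre1 had treated libraries below all controls without passing (-0.11, adjusted p = 0.19 by edgeR). Markers of other cells were mostly low and also moved. The summed level of 6 dendritic cell markers was 4.60 to 5.96 CPM in IL-4 and 2.97 to 3.81 CPM in IL-4+CGRP libraries. Of these only Siglech was lower by edgeR, at means of 1.98 and 0.638 CPM. Flt3, Zbtb46 and Clec9a had log2 fold changes of 0.16, -0.10 and -0.67 and did not pass, and Cd209a and Xcr1 were not tested. The sum of 6 stromal markers was 42.7 to 46.05 CPM in IL-4 and 47.8 to 53.95 CPM in IL-4+CGRP libraries. Neutrophil (7 genes), mast cell and basophil (5), and lymphocyte (6) lists summed to at most 39.7, 4.0 and 22.2 CPM in any library, and 6 erythroid markers to at most 0.586; Ly6g, Mcpt4, Hbb-bs, Hbb-bt, Plin1 and Lep were at 0 in all 6. Of 4 endothelial markers Pecam1 and Kdr rose, and the list summed to 105 to 122 CPM in IL-4 and 144 to 164 CPM in IL-4+CGRP libraries; its defining gene Cdh5 averaged 1.09 and 1.57 CPM. Mitochondrially encoded transcripts made up 0.349% to 0.402% of counts in IL-4 and 0.334% to 0.353% in IL-4+CGRP libraries. The part of these differences in the members' values was not tested.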

How the data were processed

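The members, gene lists and tests were chosen with earlier results of these data known. The 6 RNA sequencing libraries, 3 per group, were made with a stranded mRNA kit, per the labels' protocols. The deposited table holds estimated counts per gene, with 23.3% to 26.6% of values above 0 not whole (tolerance 1e-06), and the authors' group means, used only as a check. The submitters' processing notes name fastp, HISAT2, StringTie and build GRCm39; not given in the sources used here are their versions, the annotation, how reads were counted and whether strand was used. The table has 0 unassigned sample columns; 525 genes without a name kept their identifiers.

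Counts were rounded. filterByExpr kept 13260 genes with 99.91% of counts, and TMM factors were 0.985 to 1.016. edgeR 4.0.16 in R 4.3.3 (two-sided quasi-likelihood F test with robust dispersions and no covariates) compared IL-4+CGRP with IL-4 over the whole table, with Benjamini-Hochberg adjustment and a threshold of 0.05. SEs are the log2 fold change over the square root of F, and 95% intervals use the test's degrees of freedom. CPM are counts over TMM-scaled totals; per kilobase values use the deposited length in bases. Values in every library are given for members past the threshold and for 13 members fixed by role, and for Mdh2, Fh1 and Etfb, chosen after their values were seen; other members are named with their fold change, and with a p where the unadjusted p was under 0.05. The values of 1 other pathway gene are not reported here. Alternatives were DESeq2 1.42.0, limma-voom (limma 3.58.1), other scalings and filters, dispersions fitted without the robust option, a replicate block and fits lacking 1 library each; removal of each library's gene length trend was added after seeing the data. No replicate pair agreed within counting noise (chi-square over its degrees of freedom, 2.98 to 20.2). On simulated data built for this comparison (13260 genes), the test recovered 42% of genes changed 1.3-fold and 58% of those changed 1.5-fold. It recovered 72% of those changed 2-fold and 96% of those changed 4-fold, and called 0.191% of unchanged genes. The last value is a share of the unchanged genes and not of the calls. The share of calls that fell on unchanged genes is not given here. Near-identical copies and overlapping exons were looked up by gene identifier in GENCODE M21 (at least 95% identity over 200 bases). Besides the overlaps given above, Me1 had copies in Gm7049 (98.5% over 1638 bases), Gm48795 and Gm7329. Suclg2 had one in Gm15163 (98.9% over 1302 bases) and Etfa in Gm15289. These copies were at 0 counts in every library. Etfb had a copy in Gm45233 (100% over 626 bases), at 0 to 3 counts. How shared reads were counted is unknown here.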

Additional observations from a re-analysis of the deposited data

How the results depend on the processing

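Mdh1 fell under every alternative run, and every member called in any fit kept its direction in all of them. The members called were 1 higher and 2 lower, also with other scalings, filters, DESeq2, limma-voom and dispersions without the robust option; with the length trend removed 3 were lower, Hadha being the third. Leaving out each library gave 0 to 1 higher and 1 to 7 lower. The 7 came without IL-4+CGRP replicate 2, where 7.04% of 13492 tested genes were lower and 6.78% higher. Shares for the other left-out libraries are not given. With the replicate number as a block, 0 members were higher (1.33% of all tested genes) and 1 lower (0.649%). By edgeR, Ppard was at an adjusted p of 0.054, Ucp2 at 0.080 and Pparg at 0.066. The calls of Slc25a13 and Abcd2 ended too (0.13 and 0.15). The labels do not say that the numbers pair the libraries. Same-numbered libraries' deviations correlated at -0.19, -0.18 and 0.13, and IL-4+CGRP replicate 2 correlated best with IL-4 replicate 1. With 3 libraries in each group these correlations cannot decide whether the libraries were paired.

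The members' median log2 fold change of -0.10 was -0.0715 with library totals alone, -0.0879 with a mean count of at least 50, -0.0745 with the length trend removed, and from -0.104 to -0.0831 leaving out each library. Other pathway genes were 0 higher (2.32% of all tested genes) and 3 lower (1.54%). Without a count filter 1 was higher (Acod1, against 2.46%), and with the length trend removed 2 were (Acod1 and Rxra, against 3.57%). By DESeq2 (1.21%) or limma-voom (1.27%) 1 was lower. So was 1 with library totals alone or dispersions without the robust option, whose shares are not given. With the replicate block 0 were lower (0.649%). Leaving out each library gave 0 to 3 higher and 0 to 14 lower. The 3 and the 14 came without IL-4+CGRP replicate 2, against 6.78% and 7.04% of 13492 tested genes. The cause was not tested. Counts limit what can be said of Pdk4 and Me1, and most members' differences were smaller than 1.3-fold. The 42% recovered at 1.3-fold in simulated data is for genes drawn from all tested genes, and not for the members. The median SE was 0.062 over the members and 0.098 over all tested genes, and recovery for the members alone was not simulated.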
